A study of Gallus gallus with 6 samples.

Results

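The ubiquitin ligase and proteasome genes were followed through 3 tables of chicken regions that carried histone H3 lysine 4 (H3K4) methylation. A gene was a member when it was the closest start to a region and its annotation held at least 1 of 4 gene ontology terms: ubiquitin ligase complex, protein polyubiquitination, protein ubiquitination and proteasome complex. The rule itself uses annotation and no measured value. By this rule 129 of the 6437 genes in the tables were members. They comprised 81 of 3774 genes for ESC against PGC, 102 of 4224 for ESC against SSC and 58 of 3611 for PGC against SSC. Of the members, 20 were in all 3 tables, 72 in 2 and 37 in 1. The tables gave a symbol for 115 members and an Ensembl identifier alone for 14.

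Ubiquitin is a small protein that is joined to other proteins in a relay. An E1 enzyme activates it, an E2 enzyme carries it, and an E3 ligase brings it to the substrate, either directly or through a scaffold with an exchangeable receptor. Chains of ubiquitin send many substrates to the proteasome, a barrel-shaped protease with a regulatory particle that binds, unfolds and feeds in the substrate. Proteasome subunits and many E2 enzymes are made in nearly every cell, and H3K4 methylation is known to mark active or poised starts and enhancers.

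Chromatin immunoprecipitation (IP) with an antibody to di- and trimethylated H3K4 was sequenced with its input DNA in 3 populations. For embryonic stem cells (ESC), blastoderm of stage X was the source, and the cells were kept for 24 h in medium with LIF, bFGF and SCF. Primordial germ cells (PGC) were taken from genital ridges, at 4.5 d of incubation by the protocol and at 72 h (stage 27) by the stage label. Spermatogonial stem cells (SSC) were taken from embryonic testes, at 18.5 d by the protocol and 18 d by the label. All 3 were enriched by differential culture or purification, and no sorting is described. No genotype, strain or sex was used here.

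Each population had 1 IP and 1 input library of between 19.15 M and 26.03 M reads, so every comparison is between libraries and carries no p-value. Enrichment is the ratio of IP to input RPM (reads scaled to the library total), and a log2 ratio is the log2 of one population's enrichment over the other's. The 95% intervals cover counting error only. The median standard error from counting was 1.01 to 1.05 on the log2 scale at the members. Each gene is given at its region nearest the start, on the build galGal4. A region was listed only if enrichment was above 1 in both populations and, for these members, a peak was called in at least 1 of them, so regions without signal are not analysed here. In such bulk libraries, fewer cells carrying the mark and less mark per cell cannot be told apart. Regions were listed for 6 of 16 pluripotency symbols (KLF4 and LIN28B among them, NANOG and SOX2 not), with 3 called in ESC, 2 in PGC and 4 in SSC. They were listed for 4 of 17 PGC symbols (TFAP2C and TDRD7 among them, DDX4 and DAZL not), with 2 called in ESC, 1 in PGC and 2 in SSC. Of 13 SSC symbols 3 had one, with 1 called in ESC, 0 in PGC and 2 in SSC. The pluripotency and PGC calls thus did not set the matching population apart. Of 16 somatic gonad symbols 9 had one, with 0 called in ESC, 3 in PGC and 8 in SSC.

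In ESC against PGC, most members had the stronger signal in ESC. Of 81 members, 50 had at least 2-fold higher enrichment in ESC, where 50.4% of all genes in the table did. In PGC 14 members were at least 2-fold higher, against 22.0% of all genes. The median log2 ratio was 1.65 for the members and 1.02 for all genes. Measured from the median of all genes, 24 members were 2-fold higher in ESC and 23 in PGC. The interval lay wholly above 0 for 34 members (25.4% of all genes) and wholly below 0 for 2 (1.85% of all genes).

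In ESC against SSC, 45 of 102 members were at least 2-fold higher in ESC (38.4% of all genes) and 14 in SSC (24.5% of all genes). The median log2 ratio was 0.91 for the members and 0.50 for all genes. Centred on all genes, the counts were 22 in ESC and 16 in SSC. The interval lay wholly above 0 for 13 members (13.4% of all genes) and wholly below 0 for 0 (4.36% of all genes). The 2 ESC tables share the ESC libraries, so they do not give separate evidence on ESC.

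In PGC against SSC, 10 of 58 members were at least 2-fold higher in PGC (21.4% of all genes) and 24 in SSC (37.7% of all genes). The median log2 ratio was -0.65 for the members and -0.38 for all genes. The interval excluded no difference for 0 members higher in PGC (1.99% of all genes) and for 5 higher in SSC (8.83% of all genes). Without the inputs, 11 members were 2-fold higher in each direction, and with 5 reads added in place of 1 the count for SSC was 13.

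**Figure D1:**
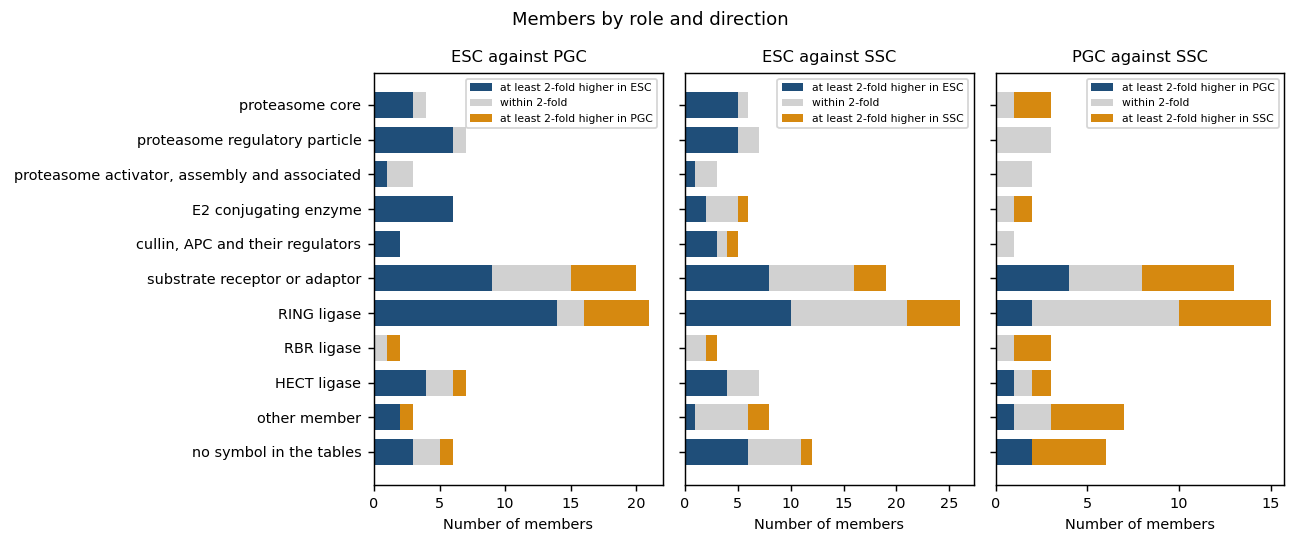
Number of members by role (horizontal axis: genes; rows: roles), split by whether enrichment was at least 2-fold higher in the first population, within 2-fold, or at least 2-fold higher in the second. In ESC against PGC the 6 E2 enzymes lie wholly in the ESC colour and the proteasome groups hold no gene in the PGC colour.

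The share of regions near starts was higher for members than for all genes in each table, but each interval held the share of all genes. Within 1 kb of the start were the regions of 56.8% of members in ESC against PGC (95% exact interval 45.3 to 67.8) and of 46.0% of all genes. In ESC against SSC the shares were 65.7% (55.6 to 74.8) of members and 57.1% of all genes, and in PGC against SSC 19.0% (9.87 to 31.4) and 14.4%. Among regions within 1 kb, the median log2 ratio of ESC over PGC was 1.87 for 46 members and 1.95 for all 1737 genes. In ESC over SSC it was 1.05 for 67 members and 1.06 for 2412 genes. Beyond 1 kb the medians were -0.29 for 35 members and -0.71 for all genes over PGC, and 0.56 for 35 members and -0.83 for all genes over SSC. In these 2 ESC comparisons the members' medians were thus close to those of all genes near starts and above them farther away. In PGC over SSC the members' medians were the lower ones. Within 1 kb they were -1.59 for 11 members and -1.33 for 520 genes, and beyond 1 kb -0.47 for 47 members and -0.096 for 3091 genes.

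Close to the start the direction was nearly one-sided. Of the 46 members within 1 kb, 40 were at least 2-fold higher in ESC than in PGC, which is 87.0% of them beside 81.6% of all genes there. Beyond 1 kb, 10 of 35 members had the excess in ESC and 12 in PGC, beside 23.8% and 38.7% of all genes there. Of the near regions, 42 of 46 lay downstream of the start, beside 80.9% of those of all genes. In the gene's own intron 1 lay 34 of the 81 member regions (42.0%), beside 28.9% of all genes. The members' regions were also wider, with a median of 366 bp beside 274 bp. The share on chromosomes numbered 11 and above was 30.9% for members and 30.7% for all genes.

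**Figure D2:**
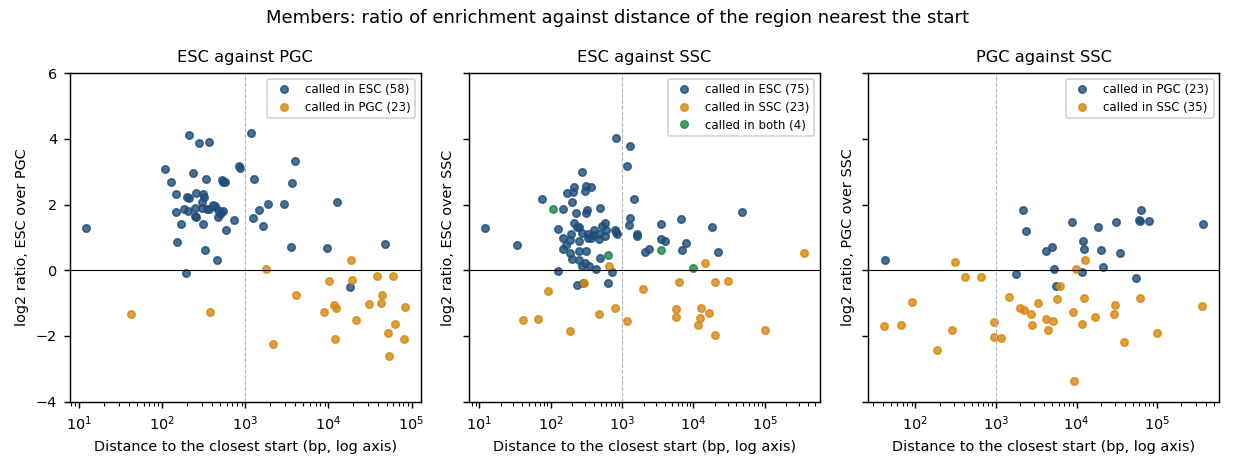
Log2 ratio of enrichment (vertical axis) against distance of the region from the closest start in bp (horizontal log axis) for each member, coloured by the population in which the authors called a peak. In ESC against PGC, 44 of the 46 regions within 1 kb (left of the dashed line) were called in ESC, while 21 of the 35 farther regions were called in PGC. Over all genes, 1663 of 1737 near regions were called in ESC and 1453 of 2037 farther ones in PGC, so the members followed the whole table.

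Proteasome genes mostly had the stronger signal in ESC. Of 14 such genes in ESC against PGC, 10 reached a 2-fold excess in ESC, as did 50.4% of all genes, and 0 did so in PGC (22.0% of all genes). The interval lay above 0 at 9 (25.4% of all genes). Of the 14, 10 lay within 1 kb, where 9 reached the excess in ESC, beside 81.6% of all genes at that distance. Only 2.48% of all genes there were higher in PGC. The interval lay above 0 at 9 of these 10, beside 734 of all 1737 genes there. In ESC against SSC, 11 of 16 reached it in ESC (38.4% of all genes) and 0 in SSC (24.5% of all genes). The interval lay above 0 at 6 (13.4% of all genes). All 16 regions were called in ESC, as were those of 2783 of all 4224 genes. Within 1 kb lay 14 of the 16, where 2128 of 2412 genes were called in ESC. Of these 14, 9 reached the excess in ESC, beside 52.4% of all genes at that distance. Only 8.62% of all genes there were higher in SSC. The interval lay above 0 at 5 of these 14, beside 433 of all 2412 genes there. The median log2 ratio of the proteasome genes was 1.86 over PGC and 1.21 over SSC. These genes were grouped by role, which leaves out the ligase UBR1 and a gene without a symbol that also carry the term proteasome complex. By that term, 11 of 15 genes were higher in ESC and 0 in PGC, and against SSC 11 of 18 in ESC and 1 in SSC. In PGC against SSC, 3 of 9 were higher in SSC (37.7% of all genes) and 0 in PGC (21.4% of all genes).

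Among core subunits, which form the proteolytic barrel, PSMB2 (a beta subunit) stood highest. Its region in intron 1, on chromosome 23 from 4222774 to 4223299, held 73 IP and 2 input reads in ESC. The same place held 11 IP and 6 input reads in PGC, and 12 IP and 13 input reads in SSC. Enrichment was thus 18.9 in ESC, 2.12 in PGC and 1.15 in SSC, so that ESC alone had a strong signal there. The log2 ratio was 3.16 over PGC (1.02 to 5.30) and 4.04 over SSC (2.05 to 6.03). A second PSMB2 region, 1835 bp upstream of the start, was called in PGC. It held 9 IP and 5 input reads in ESC against 15 IP and 5 input reads in PGC, and its log2 ratio of -1.37 had an interval that reached 0.63.

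The alpha subunits PSMA3 and PSMA4, which gate the barrel, also had their highest signal in ESC, and here PGC was the lowest. PSMA3 held 74 IP and 7 input reads in ESC, with 15 and 12 in PGC, and 18 and 10 in SSC. Its log2 ratio was 2.24 over PGC (0.75 to 3.73) and 1.75 over SSC (0.25 to 3.25). PSMA4 held 80 IP and 11 input reads in ESC, with 22 and 16 in PGC, and 27 and 12 in SSC. Here the interval excluded no difference over PGC (1.63, 0.37 to 2.89) but not over SSC (0.96, -0.33 to 2.25). Other beta subunits were listed against SSC alone: PSMB1 had a log2 ratio of 1.07 (0.13 to 2.02) and PSMB4 one of 1.05 (-1.41 to 3.51). The beta subunit cpsmb7 held 34 IP reads and 1 input read in ESC at 150 bp, with inputs of 0 in PGC and SSC, so its ratios had intervals several log2 units wide.

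The regulatory particle, which recognises and unfolds substrates, had 6 of 7 genes at least 2-fold higher in ESC than in PGC and 5 of 7 higher in ESC than in SSC. Of all genes, 50.4% and 38.4% were so. PSMD11, a lid subunit, held 70 IP and 2 input reads in ESC, with 6 and 6 in PGC, and 12 and 6 in SSC, in intron 1 on chromosome 27 from 1508120 to 1508605. Enrichment was 18.1 in ESC, 1.23 in PGC and 2.30 in SSC. The log2 ratio was 3.88 over PGC (1.63 to 6.13) and 2.98 over SSC (0.85 to 5.11). PSMD6, another lid subunit, held 81 IP and 4 input reads in ESC, with 11 and 4 in PGC, and 22 and 11 in SSC. Its ratio excluded no difference over both, at 2.09 (0.10 to 4.08) and 2.41 (0.76 to 4.05).

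PSMC3, an ATPase of the particle's base, had nearly the same enrichment in ESC and SSC. It held 87 IP and 13 input reads in ESC, with 14 and 14 in PGC, and 22 and 5 in SSC, so that enrichment was 4.82, 1.23 and 4.74 in that order of populations. ESC lay above PGC by 1.97 on the log2 scale (0.65 to 3.28), while the difference from SSC was 0.02 (-1.51 to 1.55). The ATPase PSMC2 had 1.86 over PGC (0.19 to 3.52) and 0.93 over SSC (-0.79 to 2.64). ADRM1, a ubiquitin receptor of the particle, had 2.77 over PGC (0.76 to 4.78) and 1.11 over SSC (-0.81 to 3.03). The base subunit PSMD1 had intervals that spanned 0 at its nearest region, 3551 bp upstream of the start. At a larger region 4165 bp upstream, PSMD1 held 67 IP and 7 input reads in ESC, with 17 and 11 in PGC, and 18 and 16 in SSC. There the ratio was 1.82 over PGC (0.32 to 3.31) and 2.24 over SSC (0.82 to 3.65).

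Of the proteins that work around the particle, ZFAND2A, which binds proteasomes under stress, had a log2 ratio of 1.86 over PGC (0.10 to 3.62) and 0.97 over SSC (-0.93 to 2.87). The activator PSME3 and the assembly factors PSMG3 and PAAF1 had ratios between -0.76 and 1.30, with every interval spanning 0. In PGC against SSC, 8 proteasome genes had regions, 7 of them beyond 1 kb. Of these 8, 2 reached a 2-fold excess in SSC (37.7% of all genes) and 0 did in PGC (21.4% of all genes). They were PSMB2, just at the threshold, and cpsmb7, whose ratio of -2.04 had an interval from -4.04 to -0.03. These values come from other regions than those described above, at 955 bp for cpsmb7 and beyond 1 kb for PSMB2. At the nearer regions, PGC over SSC was 0.88 for PSMB2 at 834 bp (-0.85 to 2.61). For cpsmb7 at 150 bp it was 0.997 (-3.47 to 5.47). The direction thus turned with the region for both genes, and both intervals at the nearer regions spanned 0. PSMC1, an ATPase listed in that table alone, had a ratio of -0.47 (-3.21 to 2.27).

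**Figure D3:**
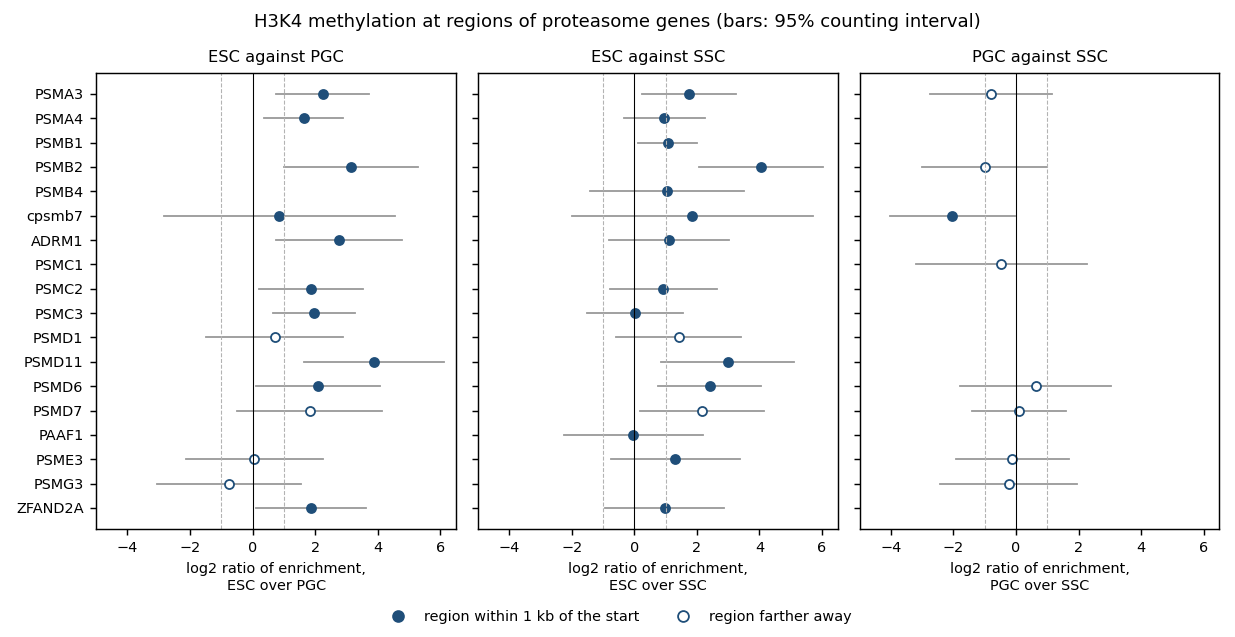
Log2 ratio of enrichment (horizontal axis) with its 95% counting interval for each proteasome member (vertical axis), in 3 comparisons; filled points are regions within 1 kb of the start and open points lie farther away. PSMB2 and PSMD11 have the highest ratios in both ESC comparisons, and the PGC against SSC points are mostly open and near 0.

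E2 enzymes, which carry ubiquitin to the ligase, were all higher in ESC than in PGC. All 6 of 6 reached the 2-fold excess, with a median log2 ratio of 1.97, and 4 had an interval above 0. Of all genes 50.4% did so, and 81.6% of those within 1 kb, where 5 of the 6 lay. Against SSC, 2 of 6 were higher in ESC (38.4% of all genes) and 1 in SSC (24.5% of all genes), and the median was 0.63. UBE2J2, an E2 of the endoplasmic reticulum membrane, held 121 IP and 7 input reads in ESC, with 18 and 16 in PGC, and 35 and 13 in SSC. Its ratio was 3.08 over PGC (1.68 to 4.48) and 1.88 over SSC (0.52 to 3.24). It was 1 of 4 among 102 members called in both ESC and SSC, as were 307 of all 4224 genes. UBE2A, a RAD6-type E2, held 98 IP and 9 input reads in ESC, with 12 and 9 in PGC, and 23 and 4 in SSC. It was higher in ESC than in PGC by 2.24 (0.73 to 3.76), with 0.35 over SSC (-1.32 to 2.03).

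The E2 enzymes UBE2D1 and UBE2D3 work with many ligases. UBE2D1 had 1.88 over PGC (0.45 to 3.31) and 0.22 over SSC (-1.32 to 1.75). UBE2D3 was given at different places in the ESC tables. The region 12774 bp upstream had 2.06 over PGC (0.08 to 4.04), and a nearer one, 11613 bp upstream, had -1.66 over SSC (-3.69 to 0.37). At the farther region the ratio of ESC over SSC was 1.11 (-0.94 to 3.16), so the direction against SSC turned with the region chosen.

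Cullin scaffolds and their regulators were few. CUL3, the scaffold that takes BTB-domain receptors, held 55 IP and 5 input reads in ESC, with 12 and 7 in PGC, and 18 and 6 in SSC, with 1.83 over PGC (0.08 to 3.59) and 1.09 over SSC (-0.65 to 2.84). DCUN1D5, which promotes the activation of cullins by NEDD8, had 1.28 in both comparisons, with intervals that spanned 0.

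Substrate receptors and adaptors, which choose the target of a cullin ligase, went both ways at shares near those of all genes. Of 20 in ESC against PGC, 9 had the excess in ESC (50.4% of all genes) and 5 in PGC (22.0% of all genes), and the median was 0.48 (1.02 for all genes). Within 1 kb lay 8 of the 20, beside 46.0% of all genes. TRPC4AP, an adaptor of the CUL4 ligase, held 96 IP and 3 input reads in ESC, with 8 and 8 in PGC, and 17 and 6 in SSC, on chromosome 20 from 2909221 to 2909946. Its enrichment was 18.6 in ESC, 1.23 in PGC and 3.18 in SSC, and the ratio was 3.91 over PGC (1.95 to 5.88) and 2.55 over SSC (0.63 to 4.46). DCAF12, another CUL4 receptor, had 2.69 over PGC, with an interval from 0.00 to 5.39. ENC1, a Kelch protein, had 2.65 (0.63 to 4.68), and WSB1, a SOCS box protein, had 1.70 (0.41 to 2.99). An ENC1 region at 35005 bp, called in PGC, pointed the other way, at -1.59 (-3.64 to 0.45). SOCS1, a receptor that restrains cytokine signalling, had 1.59 over PGC (0.22 to 2.96) and 1.37 over SSC (-0.01 to 2.76). KLHL17, a Kelch protein listed against SSC, had 2.35 (0.07 to 4.64).

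Receptors at least 2-fold higher in PGC lay far from their starts, as did most genes of that kind. Of all 832 genes at least 2-fold higher in PGC, 789 lay beyond 1 kb. FBXO15, an F-box protein known in mouse as a gene of embryonic stem cells, held 11 IP and 8 input reads in ESC against 21 and 6 in PGC. The region lay 51849 bp from the start, and its ratio of -1.92 had an interval from -3.67 to -0.17. ASB9, 12145 bp upstream, had -2.11 (-4.40 to 0.19). FBXW7, a receptor for cyclin E and MYC, was called in PGC at 60646 bp but had little difference, at -0.19 (-2.80 to 2.42).

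In SSC, the Kelch proteins KLHL7 and IPP and the F-box protein FBXO11 led the receptors. IPP held 8 IP and 10 input reads in PGC against 16 IP reads and 1 input read in SSC, at 9281 bp upstream. Its ratio of -3.38 had an interval from -5.85 to -0.91, the lowest of the 58 members in PGC against SSC. KLHL7 held 11 IP and 4 input reads in ESC against 15 and 2 in SSC, within its 5′ UTR, and its ratio of -1.84 (-4.17 to 0.49) did not exclude 0. FBXO11, 19980 bp upstream, had -1.98 over SSC (-4.11 to 0.14).

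RING ligases, which hold the E2 and the substrate together, were the largest group with the receptors. Of 21 in ESC against PGC, 14 had the 2-fold excess in ESC (50.4% of all genes) and 5 in PGC (22.0% of all genes), and their median was 1.81. Against SSC, 10 of 26 had it in ESC (38.4% of all genes) and 5 in SSC (24.5% of all genes), and the median was 0.52. TRIM33, a regulator of SMAD signalling, held 28 IP and 0 input reads in ESC, with 6 and 6 in PGC, and 7 and 3 in SSC. With the empty input set to a floor of 3 reads, ESC was 6.0-fold higher than PGC. The interval was computed only for the log2 ratio without the floor (4.17), and it began at 0.92. Over SSC the interval of TRIM33, also without the floor, began at -0.19. RNF168, which modifies histone H2A after DNA damage, held 21 IP and 0 input reads in ESC against 5 and 5 in SSC. With the same floor it was 4.55-fold higher in ESC. The interval, again for the ratio without the floor (3.77), began at 0.45.

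At their nearest regions, RLIM and LONRF2 had their lowest signal in PGC. RLIM, known in mouse for its part in X inactivation, held 49 IP and 3 input reads in ESC, with 4 and 4 in PGC, and 20 IP reads and 1 input read in SSC. Its enrichment was 9.58 in ESC, 1.23 in PGC and 13.0 in SSC, and the ratio of ESC over PGC was 2.96 (0.64 to 5.27) while that over SSC was -0.44 (-2.99 to 2.12). A second RLIM region, at 809 bp, had enrichments of 2.30 in ESC, 1.08 in PGC and 1.01 in SSC. The ratio of ESC over SSC there was 1.18 (-0.66 to 3.03), so the SSC signal depended on the region. LONRF2 held 84 IP and 5 input reads in ESC, with 6 and 7 in PGC, and 32 and 6 in SSC. Its ratio was 3.33 over PGC (1.44 to 5.22) and 0.90 over SSC (-0.78 to 2.57).

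The SUMO-targeted ligase RNF4, the SMAD pathway ligase RNF111 (Arkadia), RNF11 and PELI2, a ligase of interleukin 1 signalling, each lay within 1 kb of the start in ESC against PGC. Their ratios of ESC over PGC were 2.74 (0.83 to 4.64) for RNF4, 2.19 (0.65 to 3.73) for RNF111, 2.69 (0.97 to 4.41) for RNF11 and 2.68 (0.95 to 4.40) for PELI2. PELI2 was called in both ESC and SSC and had 0.47 over SSC (-0.95 to 1.90).

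On the PGC side, TOPORS, a ligase that binds topoisomerase I, held 5 IP and 3 input reads in ESC against 16 and 2 in PGC, 54177 bp from its start. Its ratio of -2.60 had an interval from -5.15 to -0.06. Rchy1, a ligase of p53, had -2.23 for ESC over PGC (-4.47 to 0.01) in its exon 6. For PGC over SSC it had 1.83 (-0.60 to 4.27), and it was not listed in ESC against SSC. UBR2, an N-end rule ligase, had -1.28 (-3.26 to 0.70) at 378 bp. A larger UBR2 region at 1286 bp held 65 IP and 5 input reads in ESC against 9 and 10 in PGC, with a ratio of 2.91 (1.18 to 4.64), so the direction turned with the region.

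MYLIP, a ligase that lowers the LDL receptor and a RING member, had its highest enrichment in SSC. Its region, 1158 bp downstream of the start, held 13 IP and 5 input reads in ESC, with 9 and 9 in PGC, and 20 and 4 in SSC. The ratio of PGC over SSC was -2.07 (-3.96 to -0.18) and that of ESC over SSC was -1.54 (-3.51 to 0.43).

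RBR ligases, which pass ubiquitin through an intermediate on the ligase, gave 0 members at least 2-fold higher in ESC. They numbered 2 against PGC and 3 against SSC, where 50.4% and 38.4% of all genes were higher in ESC. ARIH2 held 11 IP and 6 input reads in ESC, with 16 and 17 in PGC, and 17 and 5 in SSC, 66 bp upstream of its start. Its ratio of PGC over SSC was -1.67 (-3.31 to -0.03) and that of ESC over SSC was -1.50 (-3.39 to 0.40).

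HECT ligases, which also bind ubiquitin themselves, had 4 of 7 members higher in ESC than in PGC and 4 of 7 higher in ESC than in SSC. Of all genes, 50.4% and 38.4% were so. UBE3C held 99 IP and 12 input reads in ESC, with 19 and 10 in PGC, and 27 and 9 in SSC, with 1.39 over PGC (0.04 to 2.74). In ESC against PGC 3 of 7 HECT members were called in PGC, as were 1533 of all 3774 genes. They were SMURF2 at -0.29 (-2.22 to 1.65), HECW2 just under the 2-fold threshold (31 IP and 13 input reads in PGC) and HACE1. HACE1, 63309 bp from the start, held 9 IP and 5 input reads in ESC, with 15 and 4 in PGC, and 7 and 8 in SSC. The ratios were -1.63 for ESC over PGC (-3.69 to 0.43) and 1.85 for PGC over SSC (-0.15 to 3.84), and both intervals spanned 0.

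Members annotated to ubiquitination without being enzymes of it also appeared. TNKS2, a tankyrase that marks substrates with poly-ADP-ribose, had 3.12 over PGC (0.02 to 6.22) on 27 IP reads and 1 input read in ESC against 2 and 2 in PGC. DYRK2, a kinase that also serves as a ligase scaffold, held 86 IP and 9 input reads in ESC against 16 and 15 in PGC, with 2.35 (0.98 to 3.71). BCL2, which restrains cell death, held 13 IP and 5 input reads in ESC, with 13 and 10 in PGC, and 40 and 9 in SSC, 41 bp upstream of its start. Its ratio was -1.69 for PGC over SSC (-3.20 to -0.18) and -1.50 for ESC over SSC (-3.21 to 0.20). Beside the members higher in SSC stands the count of somatic gonad symbols called in SSC given above, whose part in these differences was not tested. Of the members without a symbol, ENSGALG00000015330 excluded no difference over both, with 2.31 over PGC (0.40 to 4.23) and 2.57 over SSC (0.91 to 4.23). ENSGALG00000023308 had an ESC input of 0 reads, and at the floor it was 5.8-fold higher in ESC than in PGC. The interval of its ratio without the floor began at 0.81.

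The RING member TRIM59 (1.81, 0.12 to 3.50) and the HECT member G2E3 (1.35, with an interval from 0.00 to 2.70) were higher in ESC than in PGC. TRAF7 and TMEM129 were listed in all 3 tables, and at their nearest regions the ratios lay between -0.21 and 1.90 with intervals that spanned 0. A second TRAF7 region, upstream of the start and within 1 kb of it, held 134 IP and 9 input reads in ESC against 16 and 10 in PGC, with a ratio of 2.44 (1.01 to 3.87). In the table against SSC that region held 139 IP and 10 input reads in ESC against 32 and 15 in SSC, with 1.94 (0.70 to 3.17). In ESC against PGC the ratios of RNF182 (-1.50), RNF144B (-1.34) and PDZRN3 (-1.27) were on the PGC side, with every interval spanning 0. Toward SSC, the same held for NHLRC1 (-1.45), known in human for Lafora disease, FBXO40 (-1.43) and UBR1 (-1.32) in ESC against SSC, and for the chaperone DNAJA1 (-1.81) in PGC against SSC. Toward PGC in PGC against SSC stood KLHL4 (1.54), BACH2 (1.47), FBXW8 (1.33) and ASB1 (1.19), again with intervals that spanned 0.

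At 50 members the nearest region was the same in both ESC tables, which places all 3 populations at one region. This set was chosen after the tables had been examined, and all 50 regions were called in ESC, so their height in ESC follows from the choice. They covered 26.8 kb. Summed over them, enrichment was 8.20 in ESC (7.22 to 9.31), 1.8 in PGC (1.56 to 2.07) and 3.23 in SSC (2.83 to 3.69). Over the 1801 genes with such a region it was 8.05, 1.64 and 2.83 in the same order.

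PGC had the least signal at most of these regions. SSC lay above PGC at 38 of 50 (76.0%), beside 77.3% of all genes. At least 2-fold higher in SSC than in PGC were 20 (38.8% of all genes), and 2 were so in PGC (2.89% of all genes). The interval of PGC over SSC lay wholly below 0 at 5 (7.05% of all genes): RLIM at -3.39 (-6.15 to -0.64), LONRF2 at -2.43 (-4.31 to -0.55), PSMC3 at -1.94 (-3.60 to -0.28), UBE2A at -1.89 (-3.72 to -0.06) and DYRK2 at -1.77 (-3.27 to -0.27). Enrichment in ESC was at least 2-fold above that in both other populations at 25 of 50, beside 55.7% of all genes.

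Within these 50, SSC lay above PGC at 7 of 12 proteasome genes and at 5 of 5 E2 enzymes. The summed enrichment of the 12 proteasome genes was 9.23 in ESC (7.11 to 11.98), 1.85 in PGC (1.41 to 2.43) and 2.65 in SSC (2.05 to 3.42). For the 12 RING ligases it was 9.24 in ESC (7.0 to 12.2), 1.8 in PGC (1.31 to 2.48) and 4.25 in SSC (3.18 to 5.66). ESC was the highest of the 3 populations at 46 of 50 (92%), beside 87.2% of the 1801 genes with such a region. The exceptions were RLIM and TRAF6, an adaptor ligase of immune receptors, with SSC highest, and ASB7 and 1 gene without a symbol, whose PGC inputs held 0 reads. The SSC enrichment of RLIM rested on 1 input read, and at its region 809 bp from the start SSC was the lowest.

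**Figure D4:**
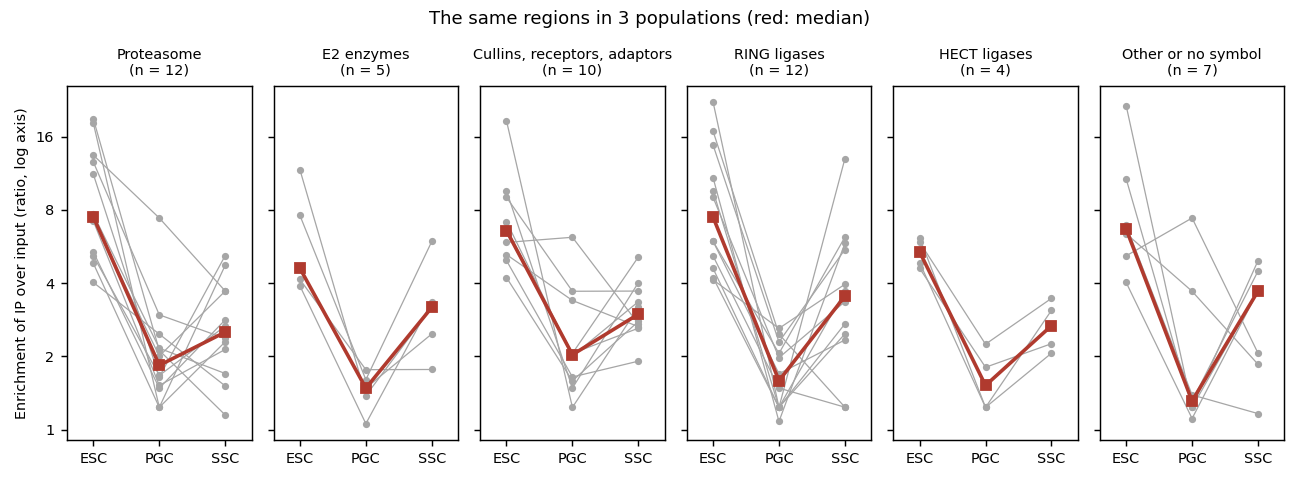
Enrichment of IP over input (vertical log axis) in ESC, PGC and SSC at the 50 regions listed in both ESC tables, by role; each grey line is 1 member and red squares are medians. The median is lowest at PGC in every panel, while SSC lies above PGC for 38 of the 50 members and for 7 of the 12 proteasome genes.

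Several members had more than 1 region in a table, and these did not always point the same way. Of 30 such members in ESC against SSC, 10 had regions at least 2-fold apart in both directions. The number was 4 of 19 in ESC against PGC and 2 of 18 in PGC against SSC. The like share over all genes is not reported here. In ESC against SSC, direction went with the call over all genes. Calls and ratios rest on the same libraries, so the one largely follows from the other. Of genes whose nearest region was called only in SSC, 1.04% were at least 2-fold higher in ESC. Of those called only in ESC, 1.86% were at least 2-fold higher in SSC. PSMD7, a lid subunit, held 39 IP and 3 input reads in ESC against 10 and 7 in SSC in intron 1, with a ratio of 2.17 (0.19 to 4.15). Its other region, 83004 bp upstream, held 18 IP and 13 input reads in ESC against 21 and 3 in SSC, with -2.71 (-4.54 to -0.88). PSMA3 had 1.75 at 314 bp and -1.60 (-3.65 to 0.45) at 1474 bp, in intron 3. The pair at cpsmb7 lay at 150 bp with 1.85 (-2.0 to 5.71) and at 955 bp with -1.91 (-3.93 to 0.11). Several regions other than the nearest also excluded 0, and only some are given here. DCAF12 had 2.71 over PGC (0.999 to 4.41) and 1.90 over SSC (0.15 to 3.64). For PGC over SSC, BCL2 had -1.69 (-2.78 to -0.61), KLHL7 -2.52 (-4.61 to -0.44) at 1962 bp and NHLRC1 -1.94 (-3.71 to -0.17) at 14346 bp. For ESC over SSC, DYRK2 had -2.88 (-5.44 to -0.32) at 5050 bp and MYLIP -1.66 (-3.01 to -0.30) at 1696 bp. SOCS1 had 3.18 for ESC over PGC (0.69 to 5.67) at 2443 bp. For PSMD7 alone of the genes drawn, intervals on both sides excluded 0.

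**Figure D5:**
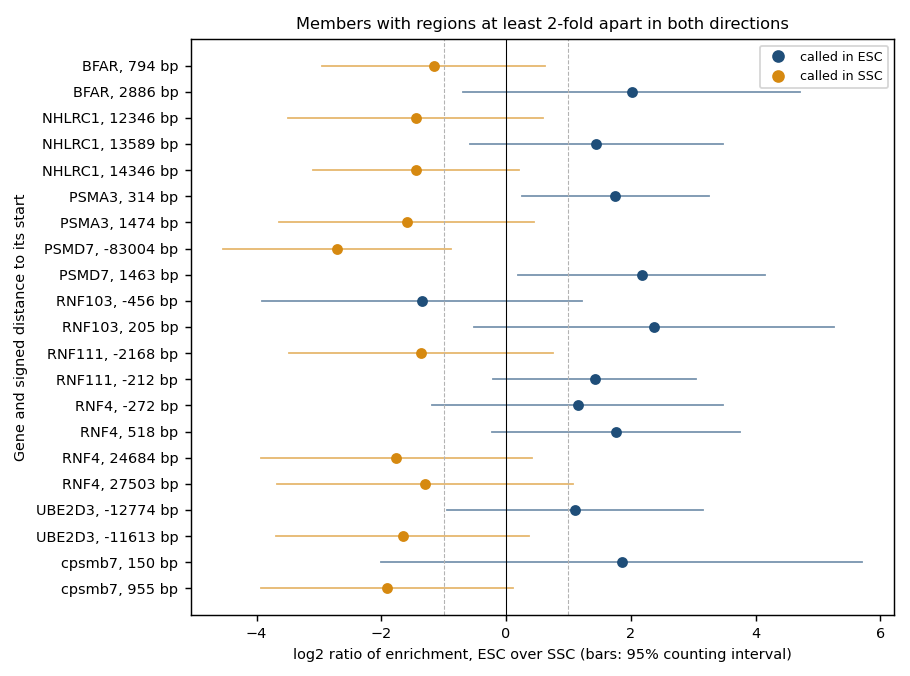
Log2 ratio of ESC over SSC (horizontal axis) with 95% counting intervals for each region of the members with a symbol whose regions were at least 2-fold apart in both directions; the vertical axis gives the gene and the signed distance to its start, and colour the population in which a peak was called. The SSC-called regions lie left of 0 and, except for RNF103 at -456 bp, the ESC-called ones right of it. Over all genes, too, direction went with the call, which rests on the same libraries as the ratio.

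Genes of the pathway were also counted by lists, which hold members already counted above beside genes that the annotation terms did not include. Of 16 proteasome subunits, activators and assembly factors in ESC against PGC, 12 of them members, 13 showed the 2-fold excess in ESC and 0 in PGC, beside 50.4% and 22.0% of all genes. Of 11 E2 enzymes, 6 of them members, 10 were higher in ESC and 1 in PGC. Against SSC 6 of 12 E2 enzymes, with 6 members among the 12, were higher in ESC and 1 in SSC, beside 38.4% and 24.5% of all genes. Within 1 kb lay 12 of the 16 proteasome genes and 7 of the 11 E2 enzymes. There 81.6% of all genes were higher in ESC and 2.48% in PGC. Of 9 cullins, partners and regulators, 2 of them members, 7 were higher in ESC and 0 in PGC, beside 50.4% and 22.0% of all genes. Within 1 kb lay 8 of the 9, where 81.6% of all genes were higher in ESC and 2.48% in PGC. CUL4A, a scaffold, had 3.45 (1.10 to 5.80) on 73 IP and 2 input reads in ESC against 6 and 4 in PGC. Deubiquitinating enzymes, which remove ubiquitin, were higher in ESC at 11 of 16 and in PGC at 2, beside the same 50.4% and 22.0% of all genes.

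MDM2, the ligase of p53, held 207 IP and 12 input reads in ESC, with 36 and 40 in PGC, and 46 and 26 in SSC. Its ratio was 3.46 over PGC (2.43 to 4.49) and 2.51 over SSC (1.45 to 3.57). Against SSC, 12 of 21 listed proteasome genes were higher in ESC and 1 in SSC, beside 38.4% and 24.5% of all genes. Of the 21, 14 were members and 19 lay within 1 kb, where 52.4% of all genes were higher in ESC and 8.62% in SSC. CUL5, a cullin that takes SOCS box receptors, was the exception among scaffolds, with 5 IP and 3 input reads in ESC against 18 IP reads and 1 input read in SSC and a ratio of -3.35 (-6.14 to -0.57).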

How the data were processed

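Per the submitters' processing notes the reads were handled with CASAVA 1.8, FastQC, BWA and MACS2 on galGal4. The base from which coordinates count, and settings and versions of FastQC, BWA and MACS2, are not given in the sources used here. Per the file headers, the authors deposited read counts per region and library, RPM values that equal the count plus 1 over the library total, the fold enrichment of IP over input as a ratio, and the log2 of the ratio of enrichments between populations. Distances run from the region's centre and are positive downstream.

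Repeats of a region for the same closest gene were collapsed, and each gene was given by the region nearest its start. From the counts with 1 read added, enrichments and log2 ratios were computed again, and 95% counting intervals came from the delta method on 4 counts. Shares have exact Clopper-Pearson intervals. Where the input of the higher population was 0, a floor of 3 reads was also used for the ratio, but not for its interval. The procedure was tested on simulated data. Named were all proteasome members, the 10 members with the highest and the 10 with the lowest ratio per comparison, those whose interval excluded 0, members of all 3 tables, and up to 2 genes per pathway list. Some of them without a symbol are in the counts alone, and DCUN1D5, TRAF6 and ASB7 were named after their values were seen. Single values of some members are not reported here. The members, roles and lists were chosen with earlier results of these data known. Columns of samples left unused numbered 0. Python 3.11.15, pandas 2.3.3, numpy 2.4.6, scipy 1.17.1 and matplotlib 3.10.9 were used.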

Additional observations from a re-analysis of the deposited data

How the results depend on the processing

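Values are given for ESC against PGC, then for ESC against SSC, then for PGC against SSC. As reported, 50, 45 and 10 members had a 2-fold excess in the first population and 14, 14 and 24 in the second. Centring on the median of all genes gave 24 and 22 higher in ESC and 23 higher in PGC, and medians of 0.63, 0.41 and -0.27 in place of 1.65, 0.91 and -0.65; the shift between libraries was the whole of that change by construction. Adding 5 reads gave 28 higher in ESC than in SSC, 13 higher in SSC than in PGC, and medians of 1.12 over PGC and 0.57 over SSC. Without inputs, 11 were higher in SSC than in PGC, and the medians were 1.18 for ESC over SSC and -0.24 for PGC over SSC; the cause was not tested. Regions within 1 kb alone, which leave fewer genes, gave 2 higher in PGC than in ESC, 5 higher in SSC than in ESC, 0 higher in PGC and 6 in SSC between these populations, and a median of -1.59. Requiring an interval without 0 left 2 in PGC against ESC, 13 in ESC and 0 in SSC, and 0 in PGC and 5 in SSC. The complex terms alone, with fewer members, gave 18 in ESC and 5 in PGC, 19 in ESC and 3 in SSC, and 2 in PGC and 9 in SSC, and the ubiquitination terms alone 28 in ESC over SSC. A window of 500 bp held 52.9% of members in ESC against SSC. At the regions listed in both ESC tables, an alternative added after seeing the data, 2 were higher in PGC than in SSC. Taking members with a symbol only, also added then, moved none of these counts by over 1.5 times.

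Of the single genes, the direction turned with the region with most IP signal for UBR2 (2.91, ESC over PGC), for NHLRC1 (1.45), RNF103 (-1.35), UBE2D3 (1.11) and cpsmb7 (-1.91) in ESC over SSC, and for KLHL4 (-0.50) in PGC over SSC. It turned with the mean over all regions of the gene for PSMD7 (-0.10), RNF182 (0.030) and UBR2 (0.82) in ESC over PGC, and for PSMD7 (-0.27), RNF4 (-0.038) and cpsmb7 (-0.029) in ESC over SSC. Without inputs it turned for RNF4 in PGC over SSC (0.027). No other named gene that was 2-fold apart turned under these settings. No paired analysis was possible because each population had 1 library of each kind and the labels carry no replicate numbers. Depth limits single genes, since many 2-fold differences lay inside the counting interval, and the spread between libraries was not measured.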
